A study of Mus musculus with 6 samples.

Results

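Retinoid metabolism genes were followed in pyloric tissue of E18.5 mouse embryos, late in gestation. The set was given as 9 genes, and its probes were found by gene symbol among the 34967 gene probes of the deposited value table. Of the 9 genes 8 had a named probe, Rarb had 2, and no probe is named Cyp26b1 here, which left 9 probes and 8 of 18505 named genes. All 8 passed the filter on dim probes, with 16776 genes tested in all.

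All embryos came from heterozygous parents (Bapx1 CRE/+), and which Cre alleles a knockout embryo carried is told only by its label. Bapx1 is another name of Nkx3-2, a homeodomain transcription factor of gut and skeletal mesenchyme. Yolk sac DNA gave the genotypes, and 3 embryos are labelled Nkx3.2 knockout and 3 are labelled wildtype littermates, with no other allele or agent given. The tissue was the distal stomach with a margin on either side of the pyloric stricture, so each piece held several cell types. Each embryo was read on its own one-colour CodeLink array, and animal codes with the same leading digits gave 3 pairs of 1 knockout and 1 wildtype embryo. The labels call the wildtype embryos littermates but do not say that these digits mark a litter, so the pairs are read as likely litter pairs.

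Retinoids are made from vitamin A in steps. Retinol is oxidised to retinal, and retinaldehyde dehydrogenases of the ALDH1A family oxidise retinal to retinoic acid. CRABP proteins carry retinoic acid in the cytoplasm, nuclear receptors of the RAR and RXR families bind it on DNA, and CYP26 enzymes break it down. Absorptive cells of the small intestine take up and esterify vitamin A, and retinoic acid also patterns the embryonic gut.

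Rarb and Cyp26a1 are textbook readouts of this pathway, because retinoic acid induces both through response elements near their start sites. These 2 sites are shown because the readouts can be read against them. A response element is a direct repeat of a short half-site, here searched as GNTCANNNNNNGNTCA (5 bases between half-sites of 6) and GNTCANNNGNTCA (2 bases between them), on both strands. The search covered RefSeq windows of GRCm38.p6 from 250 bases before to 50 bases after each start. The 5-base repeat was found in 283 of 32851 windows (0.861%) and the 2-base repeat in 367 (1.12%). Windows were available for Aldh1a1, Aldh1a2, Crabp1, Cyp26a1, Cyp26b1, Dhrs3 and Rarb, and among these the 5-base repeat was matched in Rarb and Cyp26a1 and the 2-base repeat in none. Capitals mark the matched repeat, written on the strand of the repeat. The Rarb site lies at chr14:16575506-16575535 (minus strand) and the Cyp26a1 site at chr19:37697769-37697798 (minus strand).
Rarb: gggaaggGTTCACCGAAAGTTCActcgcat
Cyp26a1: caaattaGTTCACCCAAAGTTCAtctttaa
The matched letters were the same at 15 of 16 positions. In Rarb the repeat begins 52 bases before the start. The 120 bases before that start, at chr14:16575477-16575596 (minus strand, the strand of the gene), place the repeat in its promoter.
Rarb promoter: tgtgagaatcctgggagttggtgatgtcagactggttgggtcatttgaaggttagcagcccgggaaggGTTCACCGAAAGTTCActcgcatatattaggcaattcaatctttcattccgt

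Nkx3-2 itself read 7.85 ± 0.16 in knockout-labelled arrays and 7.74 ± 0.26 in wildtype-labelled ones (SD, n = 3 each), so its signal was not lower under the knockout label. Nothing used here tells which stretch of the transcript its probe reads, so groups are called by their labels. Per the file headers, pair 1 came from another slide series than pairs 2 and 3, called batch A and batch B here. Batch and pair cannot be told apart for pair 1, the only pair of batch A. Markers of other tissues differed between arrays: the centred score of 9 liver genes was 2.18 in knockout replicate 1 and between -0.65 and -0.29 in the other 5 arrays, and that of 7 exocrine pancreas genes was 1.31 and 1.42 in pair 1 and between -0.77 and -0.59 in pairs 2 and 3. All 12 listed gastric epithelium markers and all 8 listed smooth muscle markers passed the filter on dim probes.

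The comparison asked whether these genes differ between embryos labelled knockout and their wildtype littermates. None of the 8 genes passed the test (limma, Benjamini-Hochberg over all genes), where 0 of all 16776 genes passed (0%). At an unadjusted p under 0.05 the count was 0 of 8, against 195 genes in all (1.16%). It was also 0 of 8 with the litter pair as a block, beside 4.51% of all genes, and with array batch as a block, beside 5.85%. The 8 differences ran from -0.46 for Crabp1 to 0.23 for Aldh1a1 on the log2 scale, with 4 above and 4 below 0. Their median was -0.02, beside -0.00 over all tested genes, and the medians in pairs 1, 2 and 3 were 0.02, -0.16 and 0.06. All values below are log2 normalized intensities, differences are knockout minus wildtype, and 3 arrays a group limit their precision.

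**Figure D1:**
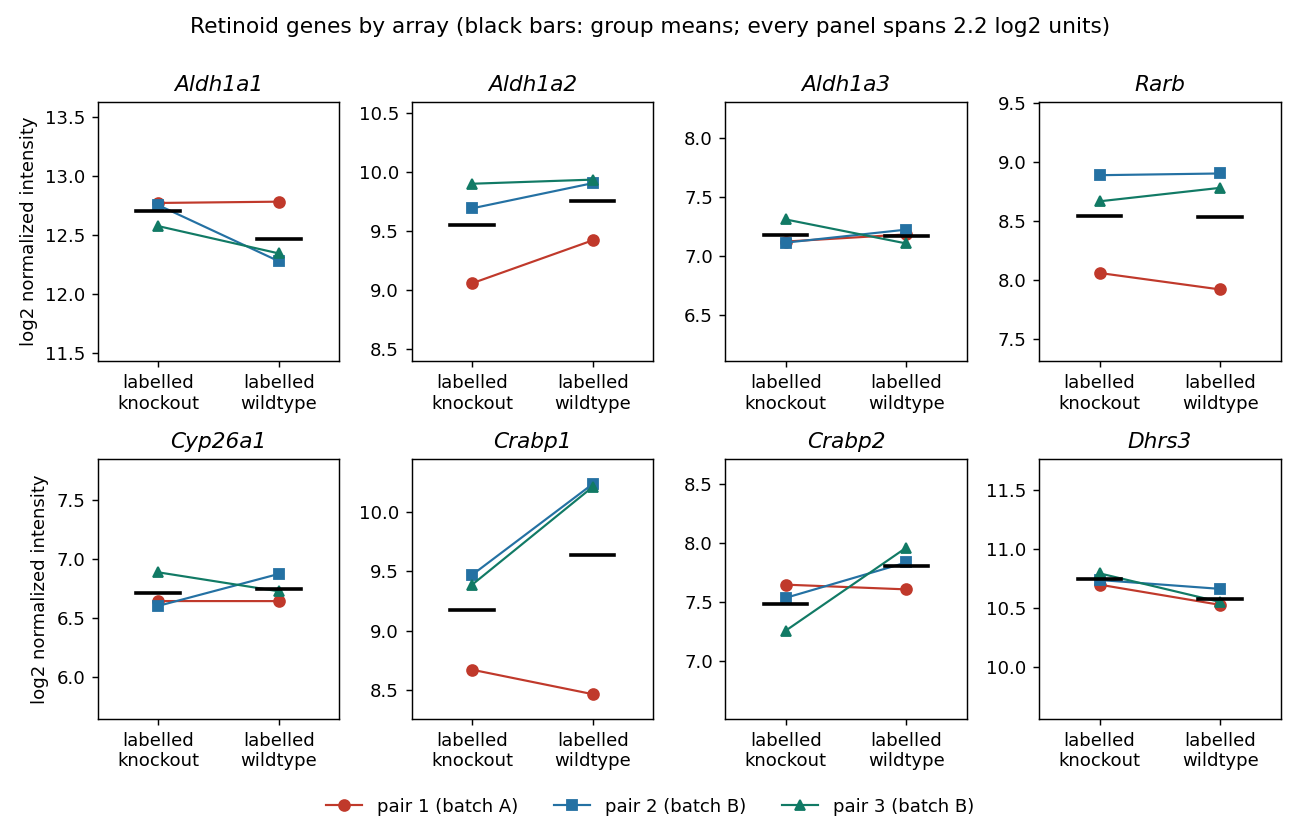
Log2 normalized intensity of each of the 8 genes on the y axis, in arrays labelled knockout (left) and wildtype (right). Lines join litter pairs, black bars are group means, and every panel spans the same height. Crabp1 read 8.46 to 8.67 in pair 1 and 9.39 to 10.24 in pairs 2 and 3, and Dhrs3 is the gene whose groups do not overlap.

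Aldh1a1, a retinaldehyde dehydrogenase, read 12.77, 12.76 and 12.58 in knockout-labelled arrays, against 12.78, 12.28 and 12.35 in wildtype-labelled ones. The knockout arrays were close to each other, and wildtype replicate 1 read as high as they did, so the groups overlapped. The difference was 0.23 (SE 0.19, 95% interval -0.21 to 0.67, adjusted p = 1.00). By pair it was -0.01, 0.48 and 0.23. Array batch as a block gave 0.23 (SE 0.12), and batch B alone gave 0.35 (SE 0.13, adjusted p = 0.368). Markers of intestinal epithelium were as a score lower in the knockout array of pair 1, where Aldh1a1 was level, and higher in those of pairs 2 and 3. They were not uniform: 2 of the 8 scored, Cdh17 and Apoa4, were higher in each pair and 0 lower, beside 12.0% and 11.0% of all genes. Their centred score, over 8 of 12 listed genes, was 0.17 to 0.38 in knockout-labelled arrays and -0.63 to 0.35 in wildtype-labelled ones, with pair differences of -0.18, 1.01 and 0.78. Fabp2, a defining marker, did not pass the filters and was not scored. The part of these markers in the Aldh1a1 values was not tested, and in whole tissue pieces fewer cells of a type and less RNA per cell cannot be told apart.

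Aldh1a2, the main retinaldehyde dehydrogenase of embryonic mesenchyme and mesothelium, was below its littermate in each pair. It read 9.06, 9.69 and 9.90 in knockout-labelled arrays, against 9.42, 9.91 and 9.94 in wildtype-labelled ones. The groups overlapped through wildtype replicate 1, which read below knockout replicates 2 and 3. Both arrays of pair 1 were the lowest of their group. The difference was -0.20 (SE 0.27, 95% interval -0.84 to 0.43), with -0.36, -0.21 and -0.03 by pair. It was -0.20 (SE 0.11) with array batch as a block and -0.12 (SE 0.13) within batch B. Without knockout replicate 1 it was 0.04, on the other side of 0. Of the 8 genes 1 was lower in each pair and 1, Dhrs3, higher, where 11.0% of 15665 genes were lower and 12.0% higher. Mesothelium markers, 5 of 7 listed, had pair differences of -0.07, 0.13 and -0.14, with scores of -0.27 to 0.23 under the knockout label and -0.13 to 0.29 under the wildtype label. Among the scored ones Upk3b and Msln were flagged near background on 3 of 6 arrays each, which limits this score. The part of the mesothelium markers in the Aldh1a2 values was not tested.

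Aldh1a3, the retinaldehyde dehydrogenase of several embryonic epithelia, read 7.12, 7.11 and 7.31 in knockout-labelled arrays and 7.18, 7.22 and 7.10 in wildtype-labelled ones. All 6 arrays lay within 0.20 of each other. The difference was 0.01 (SE 0.14, 95% interval -0.33 to 0.35), and within batch B it was 0.05 (SE 0.14). The probe was dim, at 2.80 to 3.50 times its local background. In batch B 20 or 21 of the 320 negative control spots read above it, against 0 to 2 in batch A.

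Dhrs3 was the gene whose arrays did not overlap between labels. Its product reduces retinal back to retinol, and retinoic acid induces the gene. Dhrs3 read 10.70, 10.74 and 10.79 in knockout-labelled arrays, against 10.52, 10.66 and 10.55 in wildtype-labelled ones. The lowest knockout array was above the highest wildtype array by a small margin. The difference was 0.16 (SE 0.14, 95% interval -0.16 to 0.49, adjusted p = 1.00), a fold of 1.12. It was 0.17, 0.08 and 0.24 by pair, 0.16 (SE 0.10) with array batch as a block, and 0.16 (SE 0.13) within batch B. In the authors' deposited values, scaled to an array median near 1, Dhrs3 averaged 11.9 ± 0.67 in knockout arrays and 9.93 ± 0.71 in wildtype arrays (SD, n = 3 each), again without overlap. Of the 8 genes 1 did not overlap, where 3.38% of 15665 genes did not in either direction. All knockout arrays were above in 2.29% of genes and below in 1.09%. The endothelium score, over 6 of 7 listed markers, did not overlap either, at 0.10 to 0.21 under the knockout label and -0.23 to -0.03 under the wildtype label. Its pair differences were 0.14, 0.44 and 0.26, and its part in the Dhrs3 values was not tested. Cdh5 did not pass the filters and was not scored. Of the 6 scored markers 3 were higher and 0 lower in each pair, beside 12.0% and 11.0% of all genes. No other marker score was without overlap between labels.

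Crabp1, a cytoplasmic retinoic acid binding protein, had the largest difference of the 8 genes over all 6 arrays, and it lay in pairs 2 and 3. Crabp2 had the larger one without knockout replicate 1 (-0.40 for Crabp2 and -0.21 for Crabp1), without wildtype replicate 2 (-0.30 and -0.16), without wildtype replicate 3 (-0.24 and -0.18) and without pair 2 (-0.33 and -0.31), and Aldh1a2 without pair 3 (-0.29, with -0.28 for Crabp1). It read 8.67, 9.47 and 9.39 in knockout-labelled arrays, against 8.46, 10.24 and 10.22 in wildtype-labelled ones. In batch B both knockout arrays were below both wildtype arrays, while in pair 1 the knockout array was slightly higher. In the deposited values the same arrays read 2.78, 4.48 and 3.95 under the knockout label, against 2.24, 7.71 and 7.20 under the wildtype label.

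Over all 6 arrays the Crabp1 difference was -0.46 (SE 0.51, 95% interval -1.68 to 0.75, adjusted p = 1.00). By pair it was 0.21, -0.77 and -0.83. Array batch as a block gave -0.46 (SE 0.20, adjusted p = 0.856). Within batch B, 2 arrays against 2, it was -0.80 (SE 0.12, adjusted p = 0.0870), which did not pass. Crabp1 also differed between batches, by -1.26 for batch A minus batch B.

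Crabp2, the other cytoplasmic carrier, which hands retinoic acid to its receptors, had the same order of pairs. It read 7.65, 7.54 and 7.26 in knockout-labelled arrays, against 7.61, 7.84 and 7.96 in wildtype-labelled ones. The groups overlapped only through pair 1, where both arrays were alike. The difference was -0.32 (SE 0.18, 95% interval -0.74 to 0.10, adjusted p = 1.00), with 0.04, -0.30 and -0.70 by pair. It was -0.32 (SE 0.15, adjusted p = 0.885) with array batch as a block and -0.50 (SE 0.15, adjusted p = 0.252) within batch B. The probe was dim in batch B, at 3.22 times its local background at the lowest. There 8 and 20 of the 320 negative control spots read above it in knockout replicates 2 and 3, against 2 and 10 in wildtype replicates 2 and 3.

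Crabp1 and Crabp2 were lower in the knockout arrays of pairs 2 and 3, and so were several marker scores. Smooth muscle markers, 8 of 8 listed, had pair differences of 0.18, -0.13 and -0.18, with centred scores of -0.12 to 0.05 in knockout-labelled arrays and -0.30 to 0.19 in wildtype-labelled ones. Skeletal muscle markers, 9 of 9 listed, had pair differences of -0.34, -1.60 and -1.07, and scores of -1.21 to 0.35 under the knockout label and -0.31 to 1.42 under the wildtype label. Enteric neuron and glia markers, 8 of 10 listed, had 0.02, -0.10 and -0.19, with scores of -0.06 to -0.03 under the knockout label and -0.08 to 0.14 under the wildtype label. Squamous forestomach markers, 6 of 7 listed, had 0.03, -0.37 and -0.13, with scores of -0.24 to 0.06 under the knockout label and -0.27 to 0.32 under the wildtype label. Lower in each pair were 1 of 8 smooth muscle, 7 of 9 skeletal muscle, 3 of 8 enteric and 2 of 6 squamous markers. Higher in each pair were 0, 0, 1 and 0 of them, beside 11.0% lower and 12.0% higher of all genes. The smooth muscle markers were not uniform. Acta2 and Des were higher in pair 2, Myh11 and Smtn in pair 3, and the rest were lower in both pairs. The gastric score was lower in each pair (-0.41, -0.44 and -0.48), with 5 of its 12 markers lower and 1 higher in each pair, beside 11.0% and 12.0% of all genes. Liver markers, 9 of 11 listed, had 2.55, -0.12 and -0.36, with 4 markers higher and 0 lower in each pair. Macrophage and blood markers, 3 of 8 listed, had -0.00, -0.07 and -0.08. The fibroblast markers, 7 of 7 listed, were lower only in pair 3 (0.09, 0.01 and -0.20), and the intestinal and endothelium scores were higher in pairs 2 and 3. The part of any of these tissues in the CRABP values was not tested.

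At an unadjusted p under 0.05, batch B alone gave 3 of the 8 genes, Aldh1a1, Crabp1 and Crabp2, where 12.0% of 16050 genes did so. None passed after adjustment there, as for all genes (0%). Array weights were the only alternative that called members, namely Crabp1 (-0.81, adjusted p = 0.0476) and Crabp2 (-0.61, adjusted p = 0.0245), with 3.95% of all genes called. At an unadjusted p under 0.05 it gave 4 of 8, beside 22.3% of all genes. That fit weighted pair 3 most (3.84 for its knockout and 7.03 for its wildtype array) and pair 1 least (0.209 and 0.168), and its iteration stopped before convergence.

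**Figure D2:**
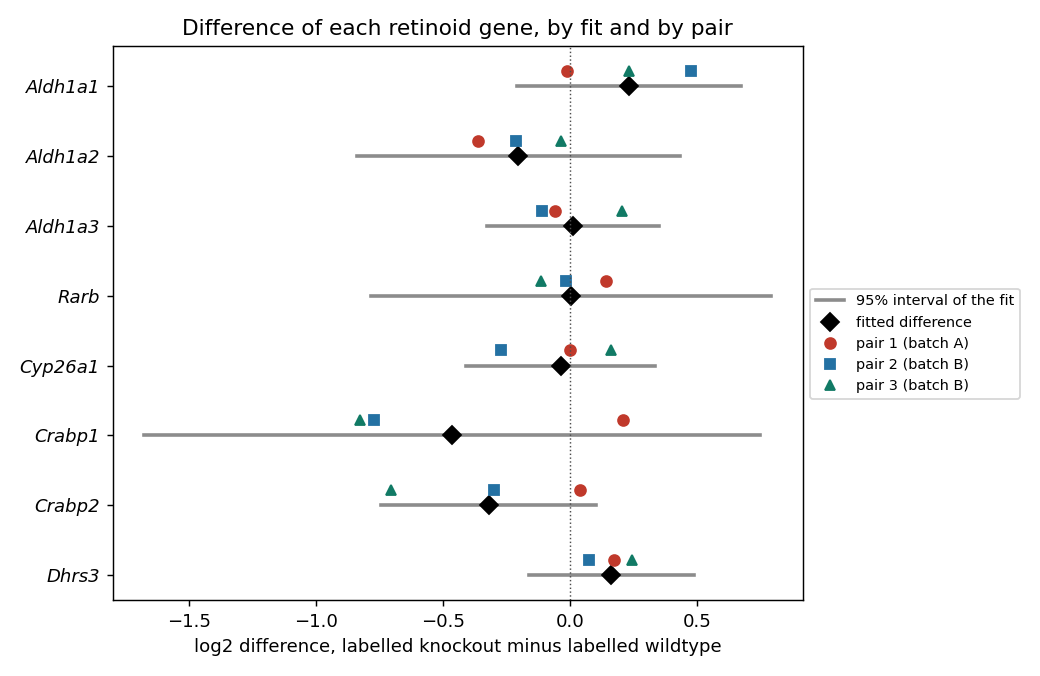
Log2 difference, labelled knockout minus labelled wildtype, on the x axis for each of the 8 genes. Diamonds are the fitted differences with 95% intervals as grey bars, and coloured points are the litter pairs. Every interval includes 0, and the pair 1 point of Crabp1 (0.21) lies apart from pairs 2 and 3 (-0.77 and -0.83).

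Rarb, a retinoic acid receptor that retinoic acid itself induces, was read by 2 probes. The probe used in the fit, designed on the RefSeq mRNA, read 8.06, 8.89 and 8.67 in knockout-labelled arrays, against 7.92, 8.91 and 8.78 in wildtype-labelled ones. Within each pair the arrays were alike, and pair 1 was lower than pairs 2 and 3 under both labels. The difference was 0.00 (SE 0.33, 95% interval -0.78 to 0.79), with 0.14, -0.01 and -0.11 by pair. It was 0.00 (SE 0.11) with array batch as a block and -0.06 (SE 0.14) within batch B.

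The other Rarb probe was designed on an mRNA described as that of the beta-3 isoform, per the authors' expression reports. Which isoforms either probe reads is not shown by the tables used here. This probe read 7.52, 6.82 and 6.80 in knockout-labelled arrays, against 7.63, 6.84 and 6.79 in wildtype-labelled ones. Its difference between labels was -0.04 (SE 0.31). Pair 1 was the higher here, so batch A minus batch B was 0.76 for this probe and -0.82 for the other. Of 2252 genes with 2 or more tested probes, 8.08% likewise had a probe at least 0.5 higher and another at least 0.5 lower in batch A. In batch B 20 to 24 of 320 negative control spots read above it, against 0 and 2 in batch A. Levels of different probes are not compared.

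**Figure D3:**
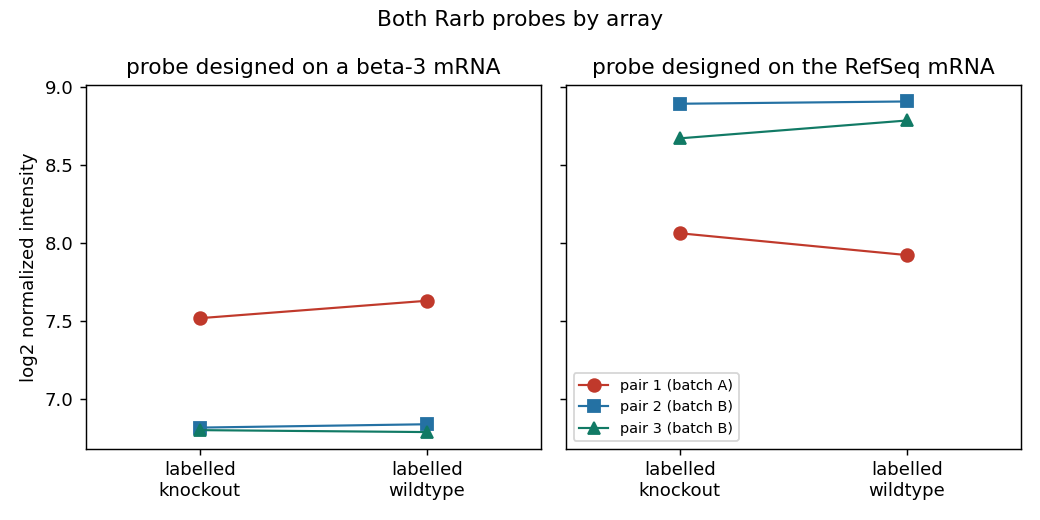
Log2 normalized intensity of both Rarb probes on the y axis, in arrays labelled knockout (left in each panel) and wildtype (right), with lines joining litter pairs. Pair 1 lies above the other pairs for the probe designed on the beta-3 mRNA and below them for the RefSeq probe, and lines are nearly level in both.

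Cyp26a1, the retinoic acid hydroxylase that limits the signal and is induced by it, read 6.64, 6.60 and 6.89 in knockout-labelled arrays, against 6.64, 6.87 and 6.73 in wildtype-labelled ones. No array stood apart, and the highest and the lowest were both labelled knockout. The difference was -0.04 (SE 0.16, 95% interval -0.41 to 0.34), with 0.00, -0.27 and 0.16 by pair and -0.05 (SE 0.15) within batch B. The probe was dim, at 2.15 to 2.54 times its local background, and 6 to 25 of the 320 negative control spots read above it on an array. A difference of this probe is thus measured close to the level of the controls. For the 2 readouts whose response elements are printed above, Rarb and Cyp26a1, the 95% intervals of the fold were 0.581 to 1.73 and 0.753 to 1.26. Both are from the fit with no block, where the Rarb SE was 0.33, beside 0.11 with array batch as a block. The Cyp26a1 difference was -0.06 with a smaller offset in the background correction and -0.10 with per-sample intensities as normalized by the authors. Its interval is that of processed values of a dim probe and is not read as a bound on expression.

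Levels varied between batches. Of the 8 genes 3 differed by at least 0.5 between batch A and batch B, namely Aldh1a2 (-0.62), Rarb (-0.82) and Crabp1 (-1.26), all lower in batch A, where 36.3% of 15665 genes differed so far in either direction. Crabp1 alone passed 1, as did 8.36% of genes. The other 5 lay between -0.13 for Cyp26a1 and 0.29 for Aldh1a1. Crabp1 and Rarb had the widest range over the 6 arrays, 1.78 and 0.98. The genes whose centred profile lay closest to Crabp1 over 6 arrays were Dapl1, 1700086L19Rik and Pmp22, at mean absolute differences of 0.04, 0.05 and 0.09, and 21 of 15664 genes lay within 0.15. For Rarb they were Jcad, Dis3l and Sox7, at 0.02, 0.04 and 0.04, with 1521 genes within 0.15.

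The other genes of the pathway were taken from lists by role, and 61 of 66 listed genes were tested. None passed the test over all 6 arrays in either direction. At an unadjusted p under 0.05 there were 2, Stra6l and Akr1b7, beside 1.16% of all genes. In batch B alone there were 16 of the 60 tested there, beside 12.0%. Array weights called 10 of the 61, beside 3.95% of all genes. The median of the 61 was 0.09, with 38 above and 23 below 0, beside -0.00 over all genes. In each of 3 pairs 9 of 61 were higher and 6 lower, beside 12.0% and 11.0% of all genes, and 2 did not overlap between labels, beside 3.38%.

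Uptake, transport and storage genes had 10 of 12 tested members above 0 and a median of 0.16. By pair the median was 0.09, 0.28 and -0.04. In each of 3 pairs 2 of the 12 were higher and 0 lower, beside 12.0% and 11.0% of all genes. Stra6l, a receptor for plasma retinol binding protein, read 10.71 ± 0.35 in knockout-labelled arrays and 10.17 ± 0.09 in wildtype-labelled ones (SD, n = 3 each). Its difference was 0.54 (SE 0.21), with 0.11, 0.69 and 0.81 by pair. Rbp2, the retinol binding protein of absorptive cells, differed by 0.56 (SE 0.38), with -0.21, 1.37 and 0.52 by pair, and Dgat1, an acyltransferase that can esterify retinol, by 0.56 (SE 0.35), with 0.06, 0.62 and 1.00. The Rbp2 order follows that of the intestinal markers, with the largest value in pair 2, and the part of those markers was not tested.

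Among 19 genes that convert retinol and retinal the median was 0.13, with 12 above and 7 below 0, and the widest spread of any list, from -0.77 to 1.24. By pair this median was -0.02, 0.23 and 0.06. In each of 3 pairs 4 of the 19 were higher and 3 lower, beside 12.0% and 11.0% of all genes. Adh7, the alcohol dehydrogenase of stomach epithelium, read 8.02 ± 0.48 in knockout-labelled arrays and 8.79 ± 0.58 in wildtype-labelled ones (SD, n = 3 each). The difference was -0.77 (SE 0.36), with -0.56, -0.24 and -1.50 by pair, beside gastric epithelium markers at -0.41, -0.44 and -0.48 (12 of 12 listed, scores of -0.70 to 0.06 under the knockout label and -0.29 to 0.50 under the wildtype label). These markers were not uniform: 5 were lower and 1 higher in each pair, beside 11.0% and 12.0% of all genes. Muc6 and Tff2 differed by -1.54 and -1.46, while Tff1, Gkn1, Gkn2 and Muc5ac differed by 0.02, 0.13, 0.20 and 0.01. Akr1b7, an aldo-keto reductase, differed by 0.57 (SE 0.21) and Rdh12, a retinal reductase, by 0.47 (SE 0.21). Akr1b7 was higher in each pair, and Rdh12 was higher in pairs 2 and 3 and level in pair 1 (-0.02). Sdr16c5, a retinol dehydrogenase named here after its value was seen, had the highest difference, 1.24 (SE 0.59), with -0.39, 1.40 and 2.72 by pair.

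**Figure D4:**
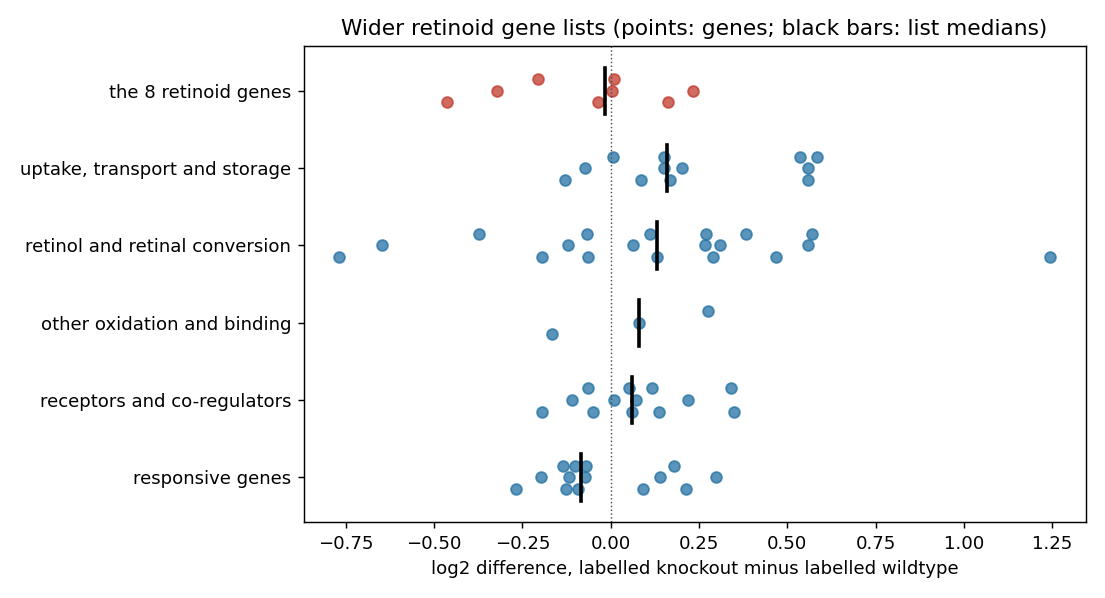
Log2 difference, labelled knockout minus labelled wildtype, on the x axis for the 8 genes and for 5 lists of other retinoid genes. Points are genes and black bars list medians, which run from -0.08 for responsive genes to 0.16 for uptake, transport and storage. This order was not kept by pair. In pair 1 receptors and co-regulators were lowest (-0.04) and the other oxidation and binding genes highest (0.18). In pair 3 responsive genes were at 0.09 and uptake, transport and storage at -0.04. No point passed the test.

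The remaining lists lay nearer to 0. Of other enzymes and carriers, Cyp1b1, a P450 that can oxidise retinoids, differed by 0.28 (SE 0.16), Aldh8a1, which oxidises retinal, by 0.08 (SE 0.20), and Fabp5, a lipid carrier that can bind retinoic acid, by -0.16 (SE 0.34). Among 13 receptors and co-regulators the median was 0.06, with Rxrg, a retinoid X receptor, at -0.19 (SE 0.19), and the co-repressors Ncor1 and Nrip1 at 0.35 (SE 0.34) and 0.34 (SE 0.34). By pair the median of the list was -0.04, -0.09 and 0.12. Of these 13, 2 were lower and 0 higher in each pair, beside 11.0% and 12.0% of all genes. The 2 were Rxrg and the co-activator Ncoa3, the second named after its values were seen. Among 14 responsive genes the median was -0.08, with 5 above and 9 below 0, and by pair it was 0.05, -0.13 and 0.09. Cdx1, an intestinal homeobox gene that retinoic acid induces in the embryo, differed by 0.30 (SE 0.28), with -0.10, 0.40 and 0.60 by pair. Hoxb1, a homeobox gene with retinoic acid response elements, differed by 0.14 (SE 0.16), and Rarres2, which encodes chemerin, by -0.20 (SE 0.21).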

How the data were processed

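RNA of 6 embryos was read on 6 arrays, 1 embryo each. The deposited scanner exports come from CodeLink Expression Analysis 5.0.0.31312, per the file headers, and hold the intensity of each spot and of its surroundings. Values of the deposited table are background-subtracted and scaled to the array median (column medians 0.997 to 1.00), not log transformed. The array files name no genome build.

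Spot means were corrected with normexp (offset 50), log2 transformed, then quantile normalized (34967 gene probes), and spots flagged masked, irregular or contaminated (0.418% to 3.34%) were set missing. A probe was tested if not near background on at least 3 arrays and measured on at least 2 of each group; a gene took its brightest probe. Near-background flags covered 13.2% to 16.7% of gene probes. Symbols came from the platform annotation, updated through RefSeq (22112 probes with 1 symbol, 681 with several, 12174 unnamed here). Groups were compared with limma 3.58.1 in R 4.3.3 (lmFit, eBayes), with no block and with Benjamini-Hochberg adjustment at 0.05; the code was tested on simulated data. Named were Nkx3-2, all members, the 3 genes of largest moderated t per wider list, and the 3 nearest profiles of the 2 members of widest range. A marker score is the mean, over a list's genes measured on all 6 arrays, of log2 values centred per gene.

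Pairs come from the leading digits of the animal codes. Deviations from the group means correlated across genes at 0.784, 0.408 and 0.577 within pairs 1, 2 and 3, but the swapped pairings of batch B did so too (0.636 for knockout replicate 3 with wildtype replicate 2, 0.536 for knockout replicate 2 with wildtype replicate 3), so within batch B these values do not set the pairs apart. Members and lists were chosen with earlier results of these data known. That the embryos of a group are separate animals is read from their codes.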

Additional observations from a re-analysis of the deposited data

How the results depend on the processing

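Each result was recomputed under 22 alternatives. Calls over all genes, among the 8 genes and in the wider lists stayed at 0 with limma in 21 of them; array weights gave 662 of 16776, 2 of 8 and 10 of 61. The litter pair as a block (a replicate block) gave 0, 0 and 0 calls and changed no other call; at an unadjusted p under 0.05 it gave 757 genes, beside 195 without it, and array batch as a block gave 982; over the other settings the count ran from 25 without pair 3 to 3748 with array weights. The median of the 8 genes was -0.02 and ran from -0.20 without wildtype replicate 1 to 0.041 over single arrays left out. Aldh1a1, Crabp1, Crabp2 and Dhrs3 kept their direction under all 22, at 0.11 to 0.39, -1.05 to -0.16, -0.61 to -0.13 and 0.12 to 0.26. The other 4 did not, and the cause was not tested. For the first 4, both blocks, no dim-probe filter, a stricter one, flagged spots kept and the mean over probes returned the main value. Those settings do not test their direction. Batch B alone also repeats the setting without pair 1, so fewer than 22 were separate checks. Rarb was -0.064 in batch B alone (the same arrays as without pair 1), -0.018 as a mean of its probes and -0.086 with array weights, and ran from -0.30 to 0.24 over single arrays left out. Aldh1a3 was -0.013 with median scaling, -0.0074 with per-sample intensities as normalized by the authors, -0.0063 with the deposited table, -0.085 without pair 3, and -0.053 to 0.045 over arrays left out. Cyp26a1 was 0.073 with array weights, 0.081 without pair 2 and -0.12 to 0.026 over arrays left out. Aldh1a2 ran from -0.38 to 0.042 over arrays left out. Dim probes limit Cyp26a1, Aldh1a3, Crabp2 in batch B and the second probe of Rarb.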
